A study of Danio rerio with 2 samples.

Results

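The ErbB receptors are a small family of receptor tyrosine kinases, and 5 of the 6 family genes looked for (erbb2, erbb3a, erbb3b, erbb4a and egfra) had a row among the 14428 rows of the expression table. The sixth, erbb4b, was not analysed here. The genes were picked by symbol as a family, but with earlier results of these data known. Expression came from 2 libraries made from zebrafish embryos of the crestin_1kb:EGFP transgenic line at the stage labelled 15 SS. The first library held about 5500 sorted EGFP-positive cells, labelled as crestin-positive neural crest cells. The second held about 100000 sorted EGFP-negative cells sorted out of the same preparation, a mixture of the embryo's other cells. All embryos were of the transgenic line, where a piece of the crestin gene drives EGFP, so the fractions differ by reporter activity and not by genotype. They also differ in the number of cells sorted, which cannot be told apart from the sort itself. The number of embryos pooled is not given in the sources used here.

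ErbB receptors bind ligands of the epidermal growth factor and neuregulin families and work as dimers. ErbB2 has no known ligand of its own and serves as a dimer partner, while ErbB3 binds neuregulins but has little kinase activity, so that the pair of them signals as one unit, chiefly through PI3 kinase and Ras. In zebrafish, erbb3b and erbb2 are needed for Schwann cells to migrate along and myelinate peripheral nerves, and for the crest-derived precursors that later supply adult pigment cells.

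With 1 library per fraction, replicate error is unknown for every value and differences were described by size, not tested. All levels are FPKM (fragments scaled by gene length and by the mapped fragments of the library). FPKM corrects for gene length, but the annotation and the options used are not stated. Comparisons of level between different genes are therefore approximate. Sequencing depth is unknown, and an exact 0 can be a failed estimate. Zeros were more frequent in the EGFP-positive library, with 5989 of 14428 rows, against 5477 in the EGFP-negative one. Of rows within 1.5-fold of the erbb2 level in EGFP-negative cells (11.7 to 26.3 FPKM), 14.9% were at 0 in EGFP-positive cells. The other way round, at 17.8 to 40.0 FPKM in EGFP-positive cells, the share was 7.93%. These bands lie at unlike levels. For rows at 10.9 to 24.6 FPKM in EGFP-positive cells, a closer match to the first band, the share at 0 in EGFP-negative cells was 10.5%. The reason was not tested, and a 0 in EGFP-positive cells is to be read with this in mind. A gene counted when it reached 1 FPKM in either library, and was called higher or lower at 2-fold or more on the scale of log2(FPKM + 1), written below as the log2 ratio of EGFP-positive over EGFP-negative. In sorted bulk samples, a smaller share of expressing cells and less RNA per cell cannot be told apart.

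The neuregulin receptor gene erbb3b was the member that differed most. It stood at 16.4 FPKM in EGFP-positive cells, against 0.032 FPKM in EGFP-negative cells. The transcript was thus present at a middling level in one fraction and close to 0 in the other, with a log2 ratio of 4.08. The plain quotient of 507 rests on the very small EGFP-negative estimate, and its size is not secure. Only 25 of the 8951 rows above 0 in EGFP-negative cells lay under 0.1 FPKM, and erbb3b was one of them. In the EGFP-positive library, 43.0% of the 8439 genes above 0 were lower than erbb3b. Its log2 ratio ranked 16th of the 7449 genes above 0 in both libraries, and 291st of the 9685 genes at 1 FPKM or more in either one, where genes listed at 0 in the other library fill most of the ranks above it. A gap of this kind was not rare at this level. Of 1794 rows within 1.5-fold of the erbb3b level in EGFP-positive cells, 188 were listed at 0 in EGFP-negative cells and 1 more lay above 0 but under 0.1 FPKM, together 10.5%.

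Its duplicate erbb3a was barely detected. It stood at 1.47 FPKM in EGFP-positive cells and was listed at 0 in EGFP-negative cells. Within EGFP-positive cells erbb3b was 11.2 times the level of erbb3a, so the b copy supplied most of the 17.9 FPKM of erbb3 transcript there. Of 385 rows within 1.5-fold of the erbb3a level in that library, 25.2% were listed at 0 in the other, so a 0 beside a value this low is common. How reads common to both copies were divided is not stated in the sources used here.

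The shared partner erbb2 was detected in both fractions, less than 2-fold apart. It stood at 26.6 FPKM in EGFP-positive cells, against 17.5 FPKM in EGFP-negative cells. The quotient was 1.52 and the log2 ratio 0.58, and 29.2% of the genes above 0 in both libraries had a higher log2 ratio. In rank by level, erbb2 lay near the middle of both libraries, above 55.9% of detected genes in EGFP-positive and 46.7% in EGFP-negative cells.

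Egfra, the receptor for epidermal growth factor and related ligands, was at 1.78 FPKM in EGFP-positive cells and listed at 0 in EGFP-negative cells. The neuregulin receptor gene erbb4a was listed at 0 in both. Counted by size, erbb3b, erbb3a and egfra were higher, erbb2 lay between the limits, and no member was lower. Over all 9685 genes, 22.9% were higher, 26.5% were lower and 50.6% were less than 2-fold apart. All 3 genes called higher reached the minimum through the EGFP-positive library alone, erbb3b included, so their count and the rank of erbb3b are a description and no support. Any gene at 1 FPKM or more there and at 0 in the other is called higher by construction, which holds for erbb3a and egfra. With a pseudocount of 5 FPKM neither was 2-fold apart, with log2 ratios of 0.37 for erbb3a and 0.44 for egfra, while that of erbb3b was 2.09.

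**Figure D1:**
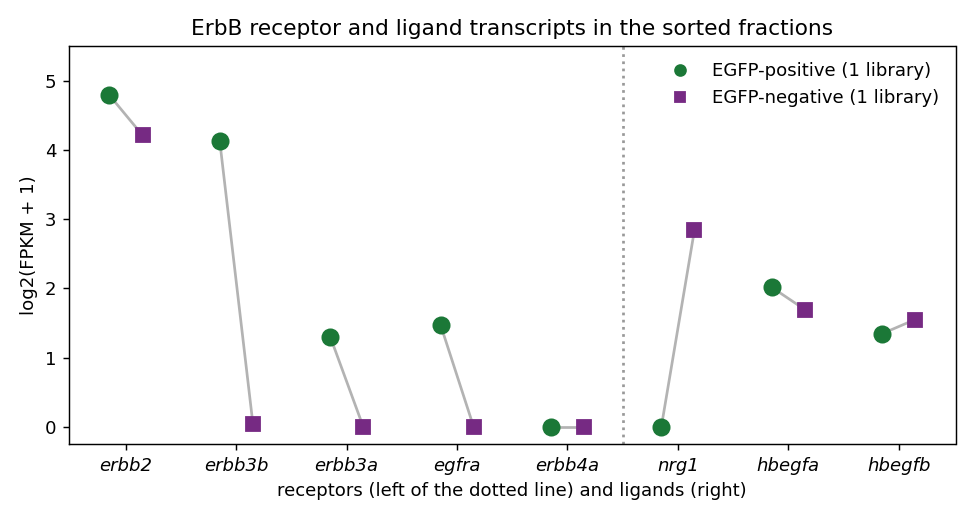
Level of each ErbB receptor gene and of the ligand genes above 0, as log2(FPKM + 1), with 1 point per library (green circles EGFP-positive, purple squares EGFP-negative). Erbb2 is present in both fractions, erbb3b is at 16.4 FPKM in EGFP-positive and 0.032 FPKM in EGFP-negative cells, and nrg1 is above 0 in EGFP-negative cells alone.

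The make-up of the receptor pool within each library does not depend on how the libraries were scaled to each other. In the EGFP-positive library, erbb2 made up 57.5% and erbb3b 35.4% of the summed FPKM of the 5 receptor genes, with 3.84% from egfra and 3.18% from erbb3a. In the EGFP-negative library erbb2 made up 99.8% and erbb3b 0.185%. The level of erbb2 was 1.62 times that of erbb3b in EGFP-positive cells, against 541 times in EGFP-negative cells. Transcripts of both partners, erbb2 and erbb3b, were measured at like levels in the crestin reporter fraction. Nearly all of the receptor sum in the EGFP-negative library came from erbb2. The share of erbb3b there and the quotient of 541 rest on a single estimate of 0.032 FPKM, and their size is not secure. This contrast restates the 2 values of erbb3b and is no further support.

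**Figure D2:**
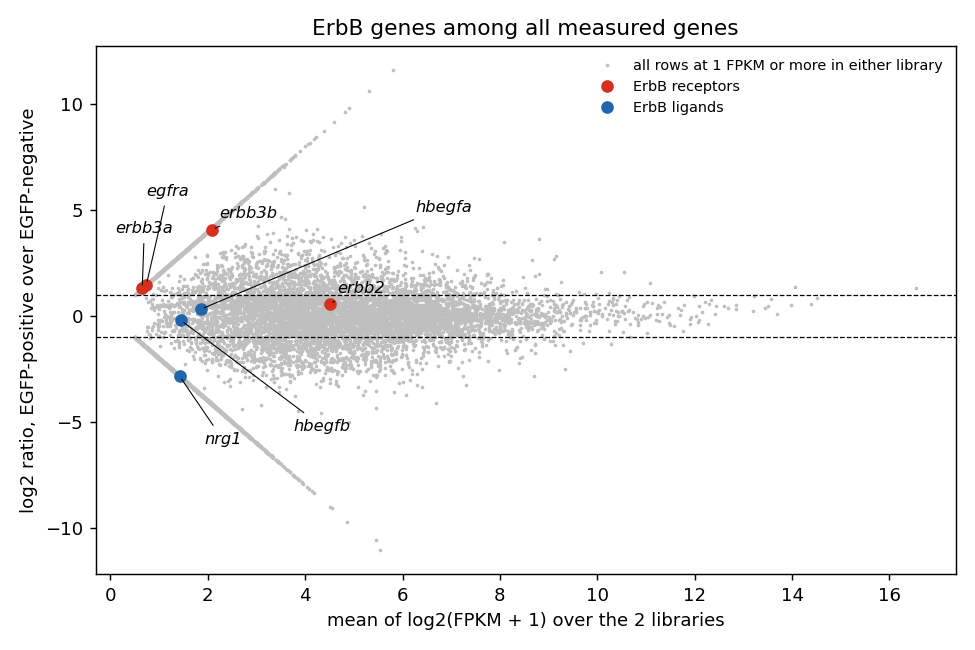
Log2 ratio of EGFP-positive over EGFP-negative (vertical axis) against the mean log2(FPKM + 1) of the libraries (horizontal axis) for all 9685 genes at 1 FPKM or more in either library, with ErbB receptors in red, ErbB ligands in blue and dashed lines at 2-fold. The diagonal lines are genes at 0 in 1 library, and erbb3b lies next to the upper one while erbb2 lies in the central cloud.

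The sort was described with marker genes, as neither crestin nor EGFP was analysed here. The markers were named after their values were seen, so their counts describe the fractions and do not test the sort. All 7 listed neural crest markers were higher in EGFP-positive cells, with a summed level of 987 FPKM against 164 FPKM in EGFP-negative cells. The EGFP-negative library still held part of each. Its level was 11.1% of the EGFP-positive level for sox10, a factor that crest and glial cells require, 8.12% for foxd3, a forkhead factor of the early crest, and 34.5% for pax3a, a paired-box factor of crest and muscle precursors. The range over the 7 markers ran between 6.24% for pax7a and 34.5% for pax3a, against 0.197% for erbb3b and 65.7% for erbb2. This order rests on the 0.032 FPKM estimate of erbb3b and turns with the pseudocount. At 5 FPKM the log2 ratio of erbb3b was 2.09, below 3.47 for ednrab, 3.04 for pax7a, 2.93 for foxd3 and 2.83 for sox10. Kidney markers (4 of 4 reaching 1 FPKM, summed 257 against 59.1 FPKM, with lhx1a at 0 in EGFP-negative cells) and hatching gland markers (3 of 3, summed 1381 against 282 FPKM, none at 0) were also higher in EGFP-positive cells, and their part in the receptor values was not tested. Of the 5 heart markers, all were lower in EGFP-positive cells, with a summed level of 259.7 against 1791 FPKM, and nkx2.5 and tnnt2a were at 0 there. Lower in EGFP-positive cells were also 4 of 5 skeletal muscle, 3 of 4 endothelial, 1 of 4 blood, 1 of 4 notochord (shha, at 0) and 1 of 5 neural tube markers, while 2 of 5 epidermal and 1 of 5 neural tube markers (neurog1, at 0 in EGFP-negative cells) were higher. Over all genes, 22.9% were higher and 26.5% lower. The blood, notochord and neural tube counts were near these shares and set those tissues apart in neither direction.

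Among the other receptor tyrosine kinases listed, lower values were more frequent than higher ones. Only 36 of 67 listed had a row. Of 33 that reached 1 FPKM, 4 were higher, 11 were lower and 18 lay between, with a median log2 ratio of -0.38, beside -0.04 over all genes. These are shares of 12.1% higher and 33.3% lower, beside 22.9% and 26.5% of all genes. Together with the 4 ErbB genes above 0 they make 37 kinases, and erbb3b had the highest log2 ratio of them. Of the other kinases called higher, kitb and ltk (1.31 FPKM against a listed 0) are so by construction. Among those called lower, pdgfrb and flt1 likewise rest on a listed 0. In the EGFP-positive library erbb2 stood 8th and erbb3b 16th by level. Just below erbb2 there stood the FGF receptor genes fgfr4 (26.3 FPKM) and fgfr1b (25.9 FPKM), igf1ra, an insulin-like growth factor receptor gene (26.05 FPKM), and insra, an insulin receptor gene (25.8 FPKM). With their spread unknown, the order of these neighbours is not secure. The neighbour of erbb3b was flt4, a receptor gene of lymphatic and venous vessels, at 16.4 FPKM in EGFP-positive cells against 23.0 FPKM in EGFP-negative cells. The most abundant were the Wnt co-receptor gene ptk7a, at 171 against 155 FPKM, and pdgfra, a receptor of crest mesenchyme, at 161 against 113 FPKM, both under 2-fold apart.

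Further receptor genes of this list went different ways, among them ret and kita, which are known from later crest lineages. Ret, the GDNF receptor of enteric and kidney precursors, was at 21.7 FPKM in EGFP-positive cells, against 7.11 FPKM in EGFP-negative cells, a log2 ratio of 1.49. The Kit receptor gene kita, used by melanocytes, was at 0.722 FPKM in EGFP-positive cells, against 11.4 FPKM in EGFP-negative cells. Its paralogue kitb was at 4.502 FPKM in EGFP-positive cells. It was listed at 0 in EGFP-negative cells, so it is called higher by construction. Ephb4b, an Eph receptor gene, was at 28.5 against 13.6 FPKM, just past 2-fold. Ephb2b, another Eph receptor gene, was at 4.202 against 23.6 FPKM. The receptors of mural and endothelial cells, pdgfrb and flt1, were listed at 0 in EGFP-positive cells, against 19.7 FPKM for pdgfrb and 5.07 FPKM for flt1 in EGFP-negative cells.

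**Figure D3:**
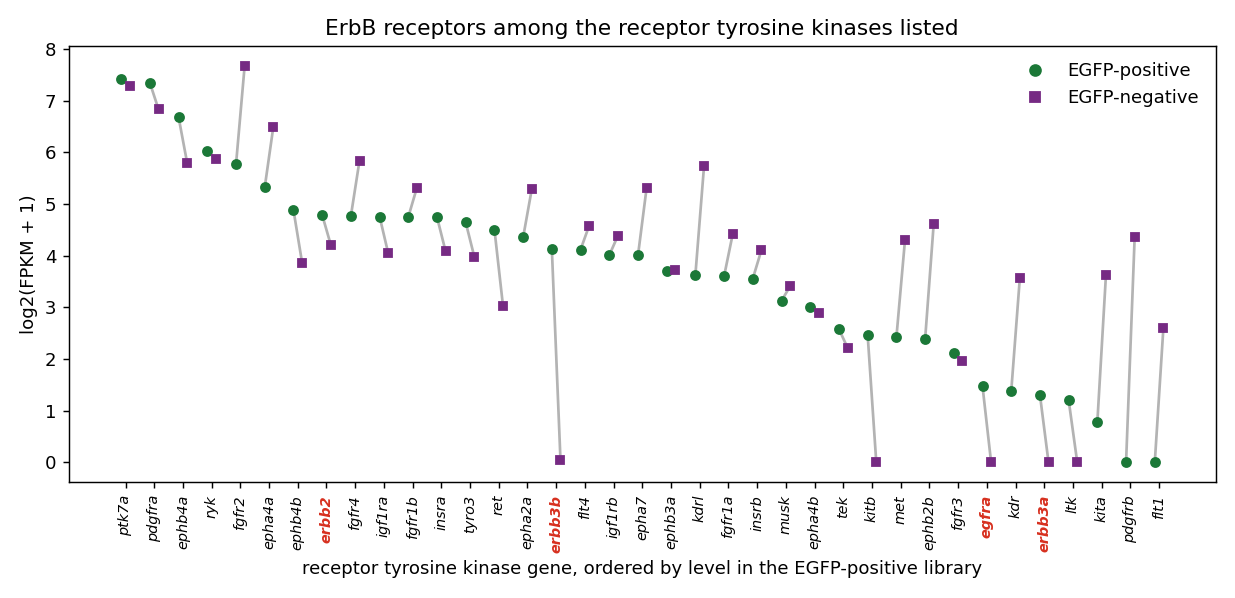
Level of 37 receptor tyrosine kinase genes as log2(FPKM + 1), with 1 point per library (green circles EGFP-positive, purple squares EGFP-negative), ordered by level in EGFP-positive cells and with ErbB genes named in red. Erbb2 stands 8th and erbb3b 16th, and the gap between the points of erbb3b is the widest of those with the green point on top.

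Of the ligands, little was detected in either fraction. Of the 14 ligand genes listed, 8 had a row and 3 reached 1 FPKM. Nrg1, the neuregulin that binds ErbB3 and that peripheral axons present to Schwann cells, was listed at 0 in EGFP-positive cells, against 6.16 FPKM in EGFP-negative cells. This is the opposite side to erbb3b. Of 1336 rows within 1.5-fold of the nrg1 level in EGFP-negative cells, 24.0% were listed at 0 in EGFP-positive cells, so a 0 at this level is common. The heparin-binding EGF-like ligands hbegfa (3.05 against 2.24 FPKM) and hbegfb (1.54 against 1.93 FPKM) differed by less than 2-fold. The neuregulin genes nrg2a and nrg2b, egf, tgfa and a row that joins btc with a clone name were listed at 0 in both libraries. Nrg3a, nrg3b, nrg4, areg, ereg and epgn were not analysed here.

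Genes listed for ligand shedding and processing, which include furina, furinb and rhbdf1a beside the surface proteases, showed no common direction. Of 8 that reached 1 FPKM, 3 were higher and 2 lower, with a median log2 ratio of 0.18. That is 37.5% higher and 25% lower, beside 22.9% and 26.5% of all genes. The paralogues of the sheddase Adam10 stood on opposite sides, adam10b at 32.7 FPKM in EGFP-positive cells against 9.499 FPKM in EGFP-negative cells, and adam10a at 36.1 against 97.0 FPKM. Adam17a, the main sheddase of EGF-like ligands in mammals, was at 32.5 against 35.9 FPKM. The proprotein convertase gene furina was at 34.6 against 10.1 FPKM. Bace2, a protease related to the neuregulin-cleaving Bace1, was at 12.8 FPKM in EGFP-positive cells and listed at 0 in EGFP-negative cells, and rhbdf1a, an inactive rhomboid of ligand trafficking, was at 14.1 against 9.76 FPKM. The bace1 gene itself was listed at 0 in both libraries. Bace2 is called higher by construction, as rhbdl3, at a listed 0 against 3.35 FPKM, is called lower.

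Of 28 adaptors and direct effectors listed, 19 had a row, and shc1, grb7 and gab2 were among those with none. Of 17 that reached 1 FPKM, 3 were higher, 3 lower and 11 between, with a median log2 ratio of -0.16. The shares were 17.6% higher, 17.6% lower and 64.7% between, beside 22.9%, 26.5% and 50.6% of all genes. The kinase gene src was at 62.6 FPKM in EGFP-positive cells against 16.9 FPKM in EGFP-negative cells, and stat5b, a transcription factor of cytokine and ErbB4 signals, at 52.8 against 17.3 FPKM. Nck2b, an adaptor gene, was lower at 3.41 against 20.5 FPKM. The docking and adaptor genes gab1 (32.2 against 45.2 FPKM), grb2a (7.60 against 12.0 FPKM) and the phosphatase gene ptpn11a (10.4 against 18.0 FPKM) were all within 2-fold.

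In the PI3 kinase and Akt branch, the one that ErbB3 engages most directly, 18 of 27 listed genes had a row. Pik3ca, pik3cb, pik3r1, akt1 and tsc2 were among those with none, so the branch was covered in part. Of the 18 genes, 5 were higher, 2 lower and 11 between, with a median log2 ratio of 0.11. Pik3r3a, a regulatory subunit of PI3 kinase, was at 49.8 FPKM in EGFP-positive cells, against 10.99 FPKM in EGFP-negative cells, a log2 ratio of 2.08. Foxo1a and foxo1b, forkhead factors that Akt inactivates, were at 22.5 FPKM against a listed 0 and at 7.88 against 1.59 FPKM. Akt3a was at 7.996 FPKM in EGFP-positive cells and listed at 0 in EGFP-negative cells. On the other side, tsc1b, a brake on the mTOR kinase, was listed at 0 in EGFP-positive cells and at 12.5 FPKM in EGFP-negative cells, while pik3r2 was at 8.07 against 15.6 FPKM. The share of higher genes was 27.8% and that of lower genes 11.1%, set against 22.9% and 26.5% of all genes. Among these, the calls of foxo1a, akt3a and tsc1b each rest on a listed 0, which can be a failed estimate.

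In the Ras and MAP kinase branch, 18 of 24 listed genes had a row, and nf1a, nf1b, rasa1a and rasa1b were among those with none. Of 17 that reached 1 FPKM, 1 was higher, 4 lower and 12 between, with a median log2 ratio of -0.10. These are shares of 5.88% higher and 23.5% lower, beside 22.9% and 26.5% of all genes. Hrasb, a Ras gene, was at 7.995 FPKM in EGFP-positive cells, against 32.3 FPKM in EGFP-negative cells. The kinase genes map2k1 and raf1a were listed at 0 in EGFP-positive cells, against 72.3 FPKM for map2k1 and 11.6 FPKM for raf1a in EGFP-negative cells. Like any listed 0, those of map2k1 and raf1a can be failed estimates, which was not tested. Map2k2a was at 20.9 against 34.1 FPKM. The kinase gene rps6ka1 was at 6.39 FPKM in EGFP-positive cells and listed at 0 in EGFP-negative cells, and rps6ka3b was at 8.11 against 4.14 FPKM.

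Among genes listed for negative feedback and receptor turnover, which include the chaperone genes cdc37, hsp90ab1 and hsp90b1, 23 of 32 had a row. Of 21 that reached 1 FPKM, 4 were higher, 2 lower and 15 between, with a median log2 ratio of 0.18. Ptpn12, a cytosolic tyrosine phosphatase, was at 910 FPKM in EGFP-positive cells, against 80.3 FPKM in EGFP-negative cells, a log2 ratio of 3.49. Dusp4, a phosphatase of MAP kinases, was at 126 against 20.2 FPKM. Errfi1a, whose mammalian counterpart binds and blocks ErbB kinase domains, was at 57.8 against 24.7 FPKM, and spred1, an inhibitor of Ras signalling, at 14.3 against 6.60 FPKM. Spred2b was lower, at 10.5 against 32.0 FPKM, and stam2, an endosomal sorting gene, was at 14.7 against 28.4 FPKM. The share of higher genes was 19.0%, and that of lower genes 9.52%, beside 22.9% and 26.5% of all genes.

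**Figure D4:**
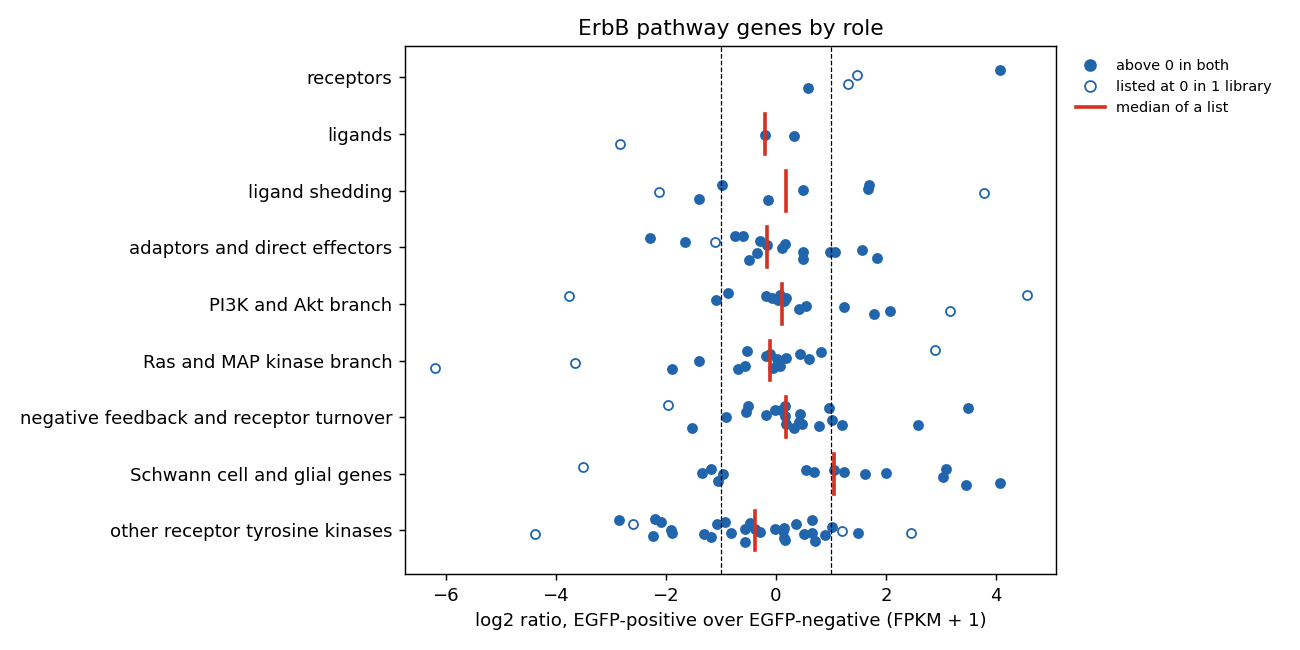
Log2 ratio of EGFP-positive over EGFP-negative for each pathway gene that reached 1 FPKM in either library, by role, with open points for genes listed at 0 in 1 library, red bars at list medians (none drawn for the receptors) and dashed lines at 2-fold. The medians drawn lie between -0.38 for the other receptor tyrosine kinases and 1.05 for the Schwann cell and glial genes, and the widest points are mostly open ones. The Schwann cell and glial list is drawn with erbb3b in it, and its median without erbb3b is 0.87.

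Schwann cell and glial genes belong to the later setting of ErbB3 signalling. Leaving out erbb3b itself, 7 of 14 were higher, 4 lower and 3 between, with a median log2 ratio of 0.87. These are shares of 50.0% higher and 28.6% lower, beside 22.9% and 26.5% of all genes, so the lower share was near that of the table. The myelin gene mpz showed the same form of difference as erbb3b, at 7.23 FPKM in EGFP-positive cells and 0.0027 FPKM in EGFP-negative cells. Like that of erbb3b, the EGFP-negative value of mpz is a very small estimate, so the size of the difference is not secure. The crest and glial factors foxd3 (86.7 against 7.04 FPKM) and sox10 (147 against 16.3 FPKM) were higher too, and both are also crest markers. On the other side, pmp22b, a myelin gene, was listed at 0 in EGFP-positive cells and at 10.3 FPKM in the other, and pou3f1, a factor of promyelinating Schwann cells, was at 9.60 against 26.0 FPKM.

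The genes most like erbb3b, by distance over log2(FPKM + 1) in the 2 libraries, were decr2, abcd4, pou4f1, cacnb2a and tmem51b. Their levels in EGFP-positive cells ran between 16.2 FPKM for pou4f1 and 16.7 FPKM for tmem51b, and all 5 were listed at 0 in EGFP-negative cells, at distances of 0.046 to 0.051. Over 2 libraries this likeness says only that both values are close.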

How the data were processed

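RNA was measured in 1 library per fraction, EGFP-positive and EGFP-negative, of sorted embryo cells. The authors deposited 1 table of FPKM values, with 1 column per library matched by the sample descriptions, and 0 columns had no sample. Per the submitters' processing notes, cutadapt, TopHat2 version 2.0.11 and Cufflinks version 2.2.1 were used with the build Zv9. The options used, the annotation and the between-library scaling are not stated there. FPKM carries no depth, so no counting interval is given. Protein and promoter sequences of the receptors were not used here, and no positions are printed because the reference gene table is of another build.

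Log2 ratios used a pseudocount of 1 FPKM, which understates the ratio of low genes, a minimum of 1 FPKM in either library and a limit of 2-fold, in Python 3.11.15 with pandas 2.3.3. Counting of calls was tested on simulated data without noise or zeros, which checks the arithmetic and not how reliable the calls are. Of 273 listed symbols, 184 had their own row, 12 were matched through an older symbol, 1 through a joined row, and 76 had none. The members and lists were chosen with earlier results of these data known. Named genes are every receptor and ligand, and in each other list up to 4 genes on the side of its median and 2 on the other, with the largest ratios among those at 5 FPKM or more. Markers, the most abundant kinases, neighbours by level and the paired paralogues were named outside this rule, after their values were seen. A planned comparison of receptor proteins was not run.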

Additional observations from a re-analysis of the deposited data

How the results depend on the processing

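No test could be made, since each fraction has 1 library, so no library could be left out. No paired analysis was possible because each group has 1 library. Under 9 alternatives (pseudocounts of 0.1 and 5 FPKM, 3 scalings, 2 other minimums, genes above 0 in both libraries, joined rows summed), erbb3b stayed past 2-fold, with log2 ratios of 2.09 to 6.96, and erbb2 stayed under it, with 0.31 to 0.60. Most of these could not change either call. The other minimums, genes above 0 in both and joined rows leave both values as they are by construction. The 3 scalings shift all genes by little and left erbb3b at 3.94 to 4.07. Only the 2 pseudocounts moved erbb3b by much. Erbb3a and egfra dropped below 2-fold with a pseudocount of 5 FPKM, at 0.37 and 0.44, and gave no value at a minimum of 5 FPKM or among genes above 0 in both. Leaving out genes at 0 in either library lowered the counts to 1325 higher and 1228 lower genes. Scaling to the same summed FPKM moved the median log2 ratio of all genes to -0.32, and without rn7sk to -0.21. The medians of the shedding, PI3 kinase and feedback lists turned negative under the first of these, at -0.10, -0.18 and -0.10, and that of PI3 kinase also under the second, at -0.04. The ligand median was 0.06 among genes above 0 in both libraries. At a minimum of 5 FPKM the adaptor median was 0.10, the shedding median 1.08 and the ligand median -2.84, from nrg1 alone.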

Other observations

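Some paralogous genes in the ErbB lists stood on opposite sides. Of 26 pairs of symbols that differ only in a last a or b and both reached 1 FPKM, 4 had one gene higher and the other lower in EGFP-positive cells, or 15.4%. Another 3 pairs, erbb3 among them, were past 2-fold in the same direction. Both erbb3 genes reached 1 FPKM in the EGFP-positive library alone, and erbb3a, beside a listed 0, is called higher by construction. Its place among the 3 pairs is a description and no support. Over all 733 such pairs in the table, 89 or 12.1% were opposite and 104 or 14.2% were called in the same direction, so the share of opposite pairs in the lists was near that of the table as a whole. Pairing by the last letter does not always join duplicate copies, since pdgfra and pdgfrb are distinct receptors. These pairs were examined after the values had been seen. The 4 opposite pairs were adam10, kit, nck2 and pmp22. Kit and pmp22 are opposite through a listed 0, of kitb in EGFP-negative and pmp22b in EGFP-positive cells. Those calls follow by construction. Nck2a was at 20.5 FPKM in EGFP-positive cells, against 9.25 FPKM in EGFP-negative cells, and nck2b at 3.41 against 20.5 FPKM, so that their sums were 23.9 against 29.8 FPKM. For adam10 the sums were 68.8 against 106.5 FPKM. For kit, kitb was at 4.502 FPKM in EGFP-positive cells and listed at 0 in EGFP-negative cells, opposite to kita, and the sums were 5.22 against 11.4 FPKM. Pmp22a was at 425 against 105 FPKM and pmp22b at a listed 0 against 10.3 FPKM, and the sums were 425 against 116 FPKM.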
